A study of Mus musculus with 12 samples.

Results

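Transcripts of 9 liver enzymes that remove ammonia and break down amino acids (Cps1, Otc, Ass1, Asl, Arg1, Gls2, Hal, Sds and Tat) were followed across all 12 libraries of the series. They were chosen by name as the rows of the deposited table whose identifier equals the gene symbol. All 9 were found among the 19852 genes listed, and all 9 passed the filter on low values that left 10568 genes for testing. The series measured liver RNA by sequencing in C57BL/6 mice aged 20 weeks. The 4 groups of 3 libraries were female ARE-Del, female wild type (WT), male ARE-Del and male WT, and the WT mice were littermates. ARE-Del mice lack the AU-rich element in the mRNA of Ifng, the interferon-gamma gene. Such elements speed mRNA decay, and the series title describes chronic expression of that cytokine. The extraction protocol writes the genotype as ARE-Del-/-, and the labels name no promoter or cell type that would limit the allele to the liver. The design asks how liver transcripts differ between ARE-Del and WT in each sex.

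The urea cycle turns ammonia, which is toxic to the brain, into urea. Carbamoyl phosphate synthetase (Cps1) and ornithine transcarbamylase (Otc) act in mitochondria, and argininosuccinate synthase (Ass1), argininosuccinate lyase (Asl) and arginase (Arg1) complete the cycle in the cytosol. Gls2, the liver glutaminase, frees ammonia from glutamine, while Hal, Sds and Tat open the breakdown of histidine, serine and tyrosine. In healthy liver the proteins of these pathways are richest in hepatocytes around the portal vein, and many of the genes are induced by glucagon and glucocorticoids. RNA from whole liver does not show the zone a transcript came from, so the periportal position is background here. In such bulk samples fewer cells of a type and less RNA per cell cannot be told apart.

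The promoter windows of Hal and Ass1 are shown because Hal was the enzyme that rose in female ARE-Del livers and Ass1 was among those that rose in males. The RefSeq table of the GRCm38.p6 assembly held windows of 250 bases before to 50 bases after the gene start for 4 of the 9 genes (Ass1, Hal, Otc and Tat). The Hal window lies at chr10:93488518-93488817 on the plus strand, and the Ass1 window at chr2:31470020-31470319 on the plus strand. Capitals mark CCAAT and the reverse complement of TATAAA in Hal, and GGGCGG in Ass1.
Hal: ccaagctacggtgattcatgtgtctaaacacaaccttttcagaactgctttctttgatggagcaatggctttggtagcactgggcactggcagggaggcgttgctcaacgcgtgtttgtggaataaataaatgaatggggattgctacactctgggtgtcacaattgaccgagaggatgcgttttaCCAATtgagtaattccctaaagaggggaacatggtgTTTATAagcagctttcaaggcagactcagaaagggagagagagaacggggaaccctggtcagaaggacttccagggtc
Ass1: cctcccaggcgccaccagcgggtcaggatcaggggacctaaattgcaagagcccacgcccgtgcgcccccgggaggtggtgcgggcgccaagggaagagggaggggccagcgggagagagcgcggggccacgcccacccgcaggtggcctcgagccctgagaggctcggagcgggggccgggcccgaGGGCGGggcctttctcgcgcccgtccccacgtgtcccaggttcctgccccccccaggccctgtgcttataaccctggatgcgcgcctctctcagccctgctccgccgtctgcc
Counted from the gene start, with upstream bases negative, CCAAT began at -64 and the TATAAA match at -28 in Hal, and GGGCGG began at -63 in Ass1. The motifs were searched on both strands. CCAAT stood in 2 of the 4 windows, Hal and Tat, against 37.4% of the 32851 windows in the table, TATAAA in 1 against 13.6%, and GGGCGG in 1 against 35.7%. None of the 4 windows held the STAT motif TTCNNNGAA (8.30% of all windows), the interferon response core GAAANNGAA (8.56%), the CREB motif TGACGTCA (1.79%), the C/EBP motif TTGCGCAA (0.183%), CAAAGTCCA, a motif of HNF4A (0.475%), or AGAACA, a motif of the glucocorticoid receptor (19.0%). The marked motifs do not overlap. The Ass1 window was 74% G or C, against 47.7% in Hal and a median of 52.7% over all windows.

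Values are RPKM, which divides reads by transcript length and library size, so levels can be compared between genes. Summed RPKM ran from 173476 to 208647 per library, and depth, estimated from the steps between low values, from 0.909 to 1.45 times that of female WT 1. Libraries of 1 group correlated across genes at r = 0.988 to 0.994 on the log2 scale. The share of albumin in summed RPKM was 13.8% to 16.5% in females and 8.56% to 12.5% in males. Ifng itself was low, at 0.208, 0.0898 and 0.238 RPKM in female ARE-Del against 0.0208, 0.011 and 0.00957 in female WT, and at 0.0978, 0.123 and 0.0742 in male ARE-Del against 0.0382, 0 and 0 in male WT, where 0 is the value listed. Each of the 6 ARE-Del values exceeded every WT value (2-sided exact permutation of genotype within sex, p = 0.005, the smallest that 400 arrangements allow). Xist, which shuts down an X chromosome in females, was at 33.0 to 45.6 RPKM in 5 female libraries and at 0.0456 in the library labelled female ARE-Del 2, while the Y-linked gene Ddx3y was listed at 0 in all 6. Results that rest on that library are given with and without it. Apart from n = 3, nothing in the labels tells whether the samples came from different mice, so p-values measure only the spread between these samples.

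By their mean over the 12 libraries the enzymes were among the more abundant transcripts of the liver. Ass1 ranked 37th of 19852 genes at 658 RPKM, Cps1 47th at 526, Arg1 86th at 244 and Tat 94th at 229.95 RPKM. Hal (104 RPKM), Otc (82.3), Asl (79.8), Gls2 (45.1) and Sds (26.2) followed. The ratio of the highest to the lowest library was smallest for Otc at 1.37 and largest for Sds at 5.67, with Tat at 3.08 and Hal at 2.32.

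**Figure D1:**
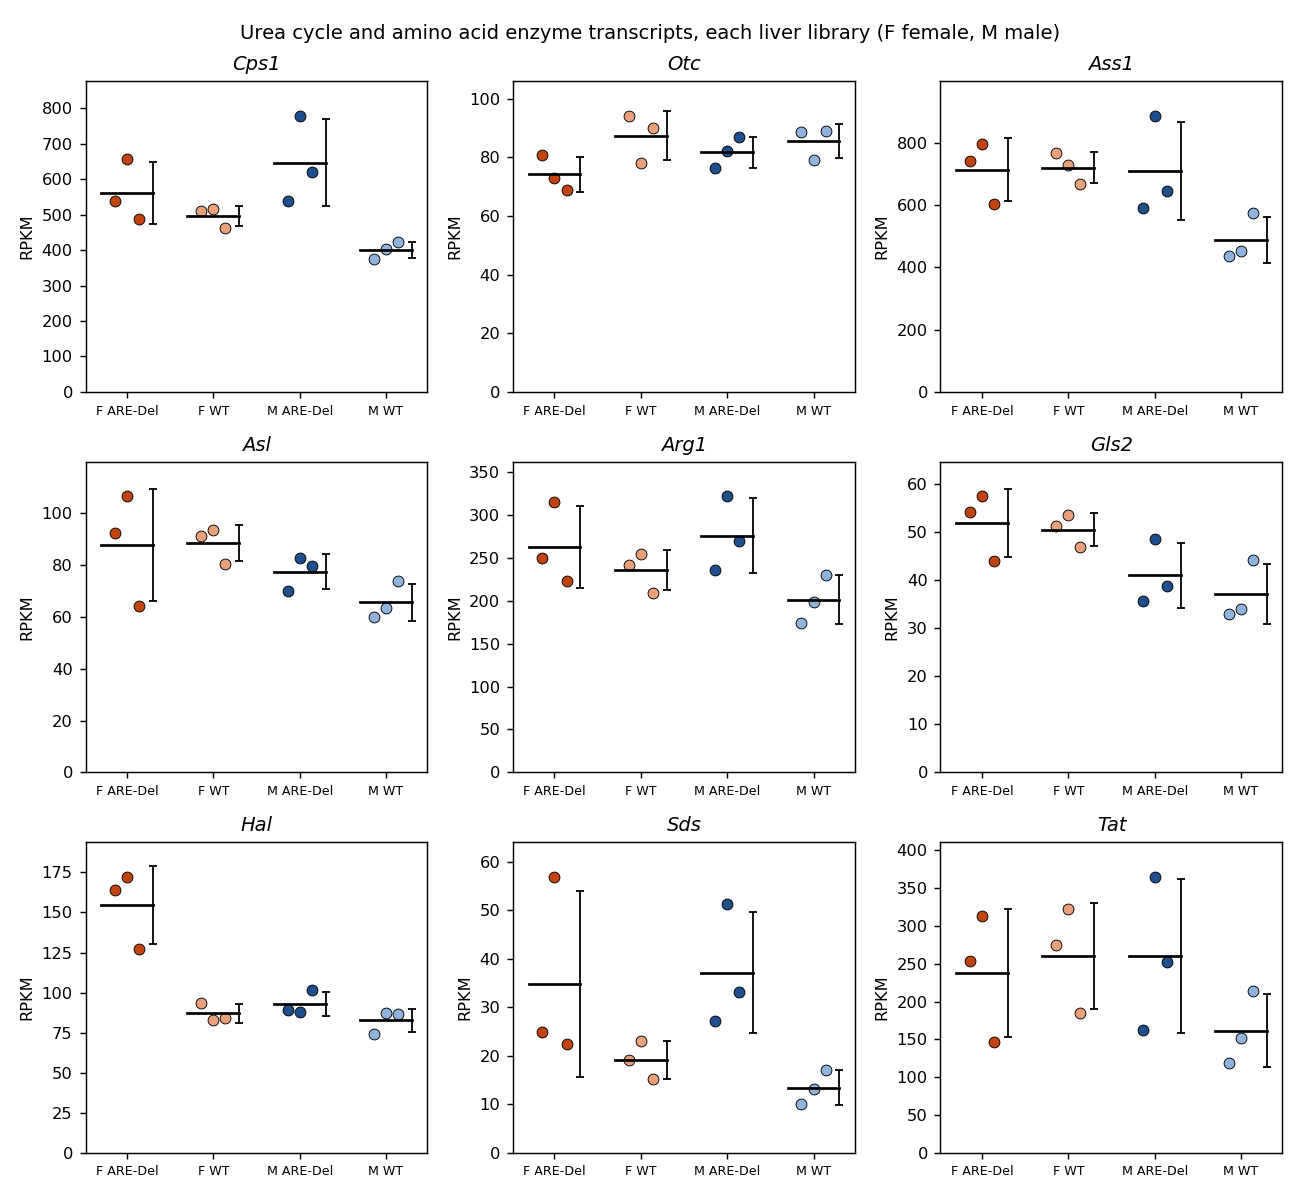
RPKM of the 9 enzymes in every library (vertical axes, linear and starting at 0), with ARE-Del left of WT in females (F, orange) and males (M, blue). Points are libraries, lines are means of 3 and bars are SD. The 3 female ARE-Del libraries stand apart for Hal, and male ARE-Del stands above male WT for Cps1, Ass1, Arg1 and Sds.

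Cps1, which carries out the rate-limiting step of the cycle by joining ammonia to bicarbonate, rose in male ARE-Del livers. It was at 538, 779.9 and 621 RPKM in male ARE-Del and at 376, 402 and 422 in male WT. All 3 ARE-Del values lay above all 3 WT values. The means were 646 ± 123 and 400.0 ± 22.8 RPKM (SD, n = 3 each), and the log2 fold change was 0.68 ± 0.14 (SE; limma, adjusted p = 0.00478), or 1.60-fold with a 95% interval of 1.29 to 1.97. In females Cps1 was at 539, 659 and 487 RPKM in ARE-Del and 509.9, 517 and 463 in WT. These groups overlapped, and the difference of 0.17 ± 0.14 did not pass (limma, adjusted p = 0.393). The 95% interval was -0.14 to 0.47. Without the library labelled female ARE-Del 2 the female difference was 0.05.

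Otc, the next enzyme, which makes citrulline from carbamoyl phosphate and ornithine, was the steadiest of the 9. It was at 80.7, 73.0 and 68.8 RPKM in female ARE-Del and 94.3, 78.2 and 89.9 in female WT. The female groups overlapped through 1 library of each, with means of 74.2 ± 6.04 and 87.5 ± 8.31. The difference of -0.23 ± 0.10 had an unadjusted p of 0.0321 and did not pass (limma, adjusted p = 0.0855). It passed as a fall when libraries were rescaled, at -0.39 by median of ratios, -0.28 by quantiles and -0.38 at equal summed RPKM, and at -0.31 without female WT 2. In males Otc was at 76.4, 82.0 and 86.9 RPKM in ARE-Del and 88.9, 79.0 and 89.0 in WT. These overlapped too, with a difference of -0.06 ± 0.10 (limma, adjusted p = 0.673).

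Ass1, which joins citrulline to aspartate and brings in the other nitrogen of urea, was the most abundant of the enzymes. In males it was at 592, 888 and 646 RPKM in ARE-Del and 438, 454 and 574 in WT. The ARE-Del libraries lay above the WT libraries, and male ARE-Del 2 was the highest of all 12. The log2 fold change of 0.52 ± 0.16 passed (limma, adjusted p = 0.0366), with means of 709 ± 157 and 488 ± 74.3 RPKM. This call was lost without male ARE-Del 2 (0.35, adjusted p = 0.138), male ARE-Del 3 (0.58, adjusted p = 0.0558), male WT 1 (0.45, adjusted p = 0.139) or male WT 2 (0.48, adjusted p = 0.0942), and under each rescaling (limma, 0.36 to 0.41). Female ARE-Del libraries were at 743, 798 and 603 RPKM and female WT libraries at 766, 730.1 and 667. The female groups overlapped throughout, and the difference was -0.02 ± 0.16 (limma, adjusted p = 0.937; interval -0.37 to 0.33).

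Asl, which splits argininosuccinate into arginine and fumarate, did not pass in either sex. It was at 92.4, 107 and 64.3 RPKM in female ARE-Del against 91.3, 93.5 and 80.5 in female WT. In males it was at 70.1, 82.9 and 79.5 RPKM in ARE-Del against 59.9, 63.5 and 73.7 in WT. The groups overlapped in both sexes, and the female ARE-Del libraries spread more widely than the others (SD 21.6, against 6.61 to 7.16). The differences were -0.04 ± 0.16 in females and 0.24 ± 0.16 in males (limma, adjusted p = 0.875 and 0.31).

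Arg1, which releases urea and returns ornithine to the cycle, was at 235, 322 and 269.7 RPKM in male ARE-Del and 174, 199 and 230.4 in male WT. The male groups did not overlap, with the lowest ARE-Del library just above the highest WT library. The difference of 0.45 ± 0.15 had an unadjusted p of 0.0128 and an adjusted p of 0.0561 (limma), with a 95% interval of 0.11 to 0.79. Female ARE-Del libraries held 249, 315 and 223 RPKM and female WT libraries 242, 254 and 209. The female groups overlapped, with a difference of 0.15 ± 0.15 (limma, adjusted p = 0.507) that was 0.01 without the library labelled female ARE-Del 2.

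Arginase is also made by some macrophages, so their markers are given beside Arg1. Of 5 markers of arginase-expressing macrophages, Retnla stood at 0 in each of the 6 female libraries and reached 0.0563 RPKM at most in males, and Chil3, Mgl2 and Clec10a never reached 0.5. The fifth, Mrc1, is also a marker of resident liver macrophages and endothelium. It averaged 11.9 ± 2.1 RPKM in female ARE-Del against 7.6 ± 3.3 in female WT (0.66 ± 0.25; limma, adjusted p = 0.0653). In males Mrc1 rose by 0.77 ± 0.25 (limma, adjusted p = 0.0471). The male call was lost in 14 of 19 alternatives, among them each rescaling and the fit without the library labelled female ARE-Del 2. The list summed to 9.86 to 14.3 RPKM in female ARE-Del, 4.11 to 10.7 in female WT, 7.46 to 9.90 in male ARE-Del and 3.56 to 5.33 in male WT. The part of macrophages in the values of Arg1 was not tested. Nos2, the inducible nitric oxide synthase that competes with arginase for arginine, was below the filter, at 0.0997 to 0.822 RPKM in female ARE-Del, 0.00873 to 0.0241 in female WT, 0.0224 to 0.0809 in male ARE-Del and listed at 0 in male WT. Arg2, the arginase of other tissues, reached at most 0.324 RPKM in any library.

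Together the 5 cycle enzymes summed to 1512 to 2155 RPKM in male ARE-Del libraries and 1136 to 1388 in male WT, which did not overlap. In females they summed to 1446 to 1951 RPKM in ARE-Del and 1509 to 1704 in WT, which did. As a share of summed RPKM the means were 0.925% ± 0.158 and 0.697% ± 0.0893 in male ARE-Del and WT, and 0.828% ± 0.109 and 0.883% ± 0.0819 in female ARE-Del and WT (SD, n = 3 each).

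Gls2, which feeds ammonia to Cps1 inside the mitochondrion, was at 54.3, 57.5 and 44.0 RPKM in female ARE-Del against 51.2, 53.5 and 46.9 in female WT. In males it was at 35.6, 48.6 and 38.9 RPKM in ARE-Del against 32.9, 34.1 and 44.2 in WT. Within each sex the genotypes overlapped, and neither difference passed (0.03 ± 0.14 and 0.14 ± 0.14; limma, adjusted p = 0.888 and 0.503).

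Hal, the ammonia-lyase that begins histidine breakdown, was the enzyme that rose in female ARE-Del livers. Its libraries were at 164, 172 and 127 RPKM in female ARE-Del and at 93.6, 83.0 and 84.3 in female WT. Every female ARE-Del library lay above every other library of the series for this gene, the nearest being male ARE-Del 3 at 102 RPKM. The means were 155 ± 24.3 and 87.0 ± 5.75 RPKM, with a log2 fold change of 0.81 ± 0.12 (limma, adjusted p = 2.2e-04), or 1.75-fold with an interval of 1.47 to 2.10. Without the library labelled female ARE-Del 2 it was 0.73 and passed. Male libraries were at 89.4, 87.9 and 102 RPKM in ARE-Del and 74.3, 87.3 and 86.4 in WT. The male groups did not overlap but nearly touched, and the difference of 0.17 ± 0.12 did not pass (limma, adjusted p = 0.343).

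Sds, which converts serine to pyruvate and ammonia, had the widest range. In males it was at 27.1, 51.2 and 33.2 RPKM in ARE-Del and 10.05, 13.1 and 17.2 in WT. The groups did not overlap, and the rise of 1.38 ± 0.33 (limma, adjusted p = 0.0105) was 2.61-fold with an interval of 1.60 to 4.26. It missed the threshold without male WT 1 (1.20, adjusted p = 0.0532). In females Sds was at 25.0, 57.0 and 22.5 RPKM in ARE-Del and 19.2, 23.1 and 15.3 in WT. The lowest ARE-Del library lay below the highest WT library, and the highest was the one labelled female ARE-Del 2. The female difference of 0.72 ± 0.33 had an unadjusted p of 0.0471 and did not pass (limma, adjusted p = 0.115), and it was 0.31 without that library.

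Tat, the aminotransferase that begins tyrosine breakdown, varied widely among libraries of 1 group. It was at 254, 314 and 147 RPKM in female ARE-Del against 275, 322 and 184 in female WT. Male ARE-Del libraries were at 162, 365 and 252 RPKM and male WT libraries at 119, 151 and 214. The groups overlapped in both sexes, with differences of -0.16 ± 0.34 in females and 0.65 ± 0.34 in males (limma, adjusted p = 0.758 and 0.199). The 95% intervals were -0.90 to 0.58 and -0.09 to 1.39.

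**Figure D2:**
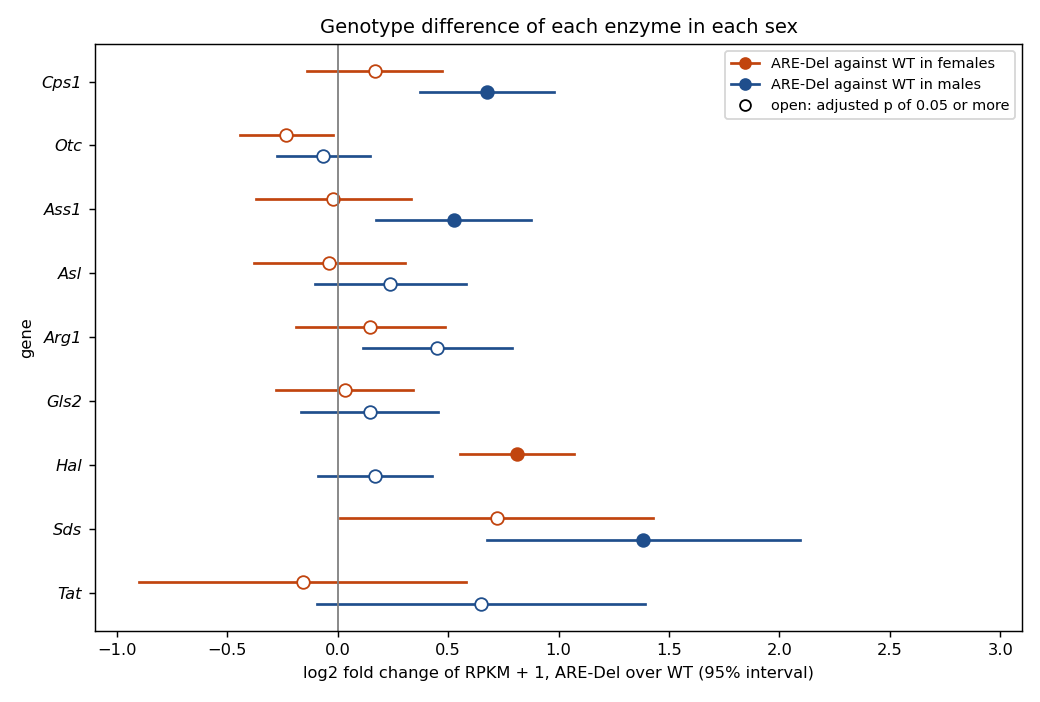
Log2 fold change of RPKM + 1, ARE-Del over WT (horizontal axis), with 95% intervals for the 9 enzymes in females (orange) and males (blue). Filled points passed at an adjusted p below 0.05, which were Hal in females and Cps1, Ass1 and Sds in males.

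Counted over the 9 enzymes, 1 was called between female ARE-Del and WT, beside 31.3% of all tested genes in either direction and 25.8% called higher. Hal was also the only 1 of 9 whose female groups did not overlap with ARE-Del higher, beside 34.9% of tested genes. In males 3 of 9 were called, all higher, beside 21.5% of tested genes in either direction and 19.5% called higher. Male groups did not overlap, with ARE-Del higher, for 5 of 9 (Cps1, Ass1, Arg1, Hal and Sds), beside 36.1% of tested genes. The female counts lay under the share among all genes, and with 9 genes the male counts were not far from it. The median log2 fold change of the enzymes was 0.03 in females and 0.45 in males, against 0.09 and 0.10 over all tested genes, and it was above 0 for 5 of 9 in females and 8 of 9 in males, against 68.8% and 75.6% of all tested genes.

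Whether the genotype difference itself differed between the sexes was tested as an interaction, the female minus the male effect. None of the 9 passed, beside 0.568% of tested genes (60), while 3 had an unadjusted p below 0.05. These were Hal at 0.64 ± 0.17 (limma, unadjusted p = 0.00242, adjusted p = 0.115), Cps1 at -0.51 ± 0.20 (unadjusted p = 0.0244, adjusted p = 0.325) and Ass1 at -0.54 ± 0.23 (unadjusted p = 0.0339, adjusted p = 0.372). The calls of Hal in females and of Cps1, Ass1 and Sds in males are therefore not shown to be particular to a sex. For Sds the interaction was -0.66 ± 0.46, and for the other 5 it lay between -0.81 and -0.11.

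Females and males were compared within each genotype. Among ARE-Del livers, females had more Hal than males, 155 ± 24.3 against 92.9 ± 7.50 RPKM, a log2 fold change of 0.72 ± 0.12 (limma, adjusted p = 0.00124). It was the 1 of 9 called there, beside 22.4% of tested genes, and the 1 whose groups did not overlap with females higher, beside 26.7%. Gls2 was next at 0.34 ± 0.14 (limma, adjusted p = 0.114). Among WT livers 1 of 9 was called, beside 9.76% of tested genes. That was Ass1, at 721 ± 50.4 RPKM in females against 488 ± 74.3 in males (0.57 ± 0.16; limma, adjusted p = 0.0447), a call that stood in 7 of 19 alternatives. Female WT libraries lay above all male WT libraries for Cps1, Ass1, Asl and Gls2, 4 of 9, beside 18.9% of tested genes. The differences of the other 3 were 0.31 ± 0.14 for Cps1, 0.43 ± 0.16 for Asl and 0.45 ± 0.14 for Gls2 (limma, adjusted p = 0.187, 0.114 and 0.0694). Hal did not differ detectably between female and male WT (0.07 ± 0.12, interval -0.18 to 0.33), and all 9 estimates were above 0, against 62.2% of tested genes. The male ARE-Del and male WT libraries enter both kinds of comparison, as the female libraries do, so these results share samples.

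**Figure D3:**
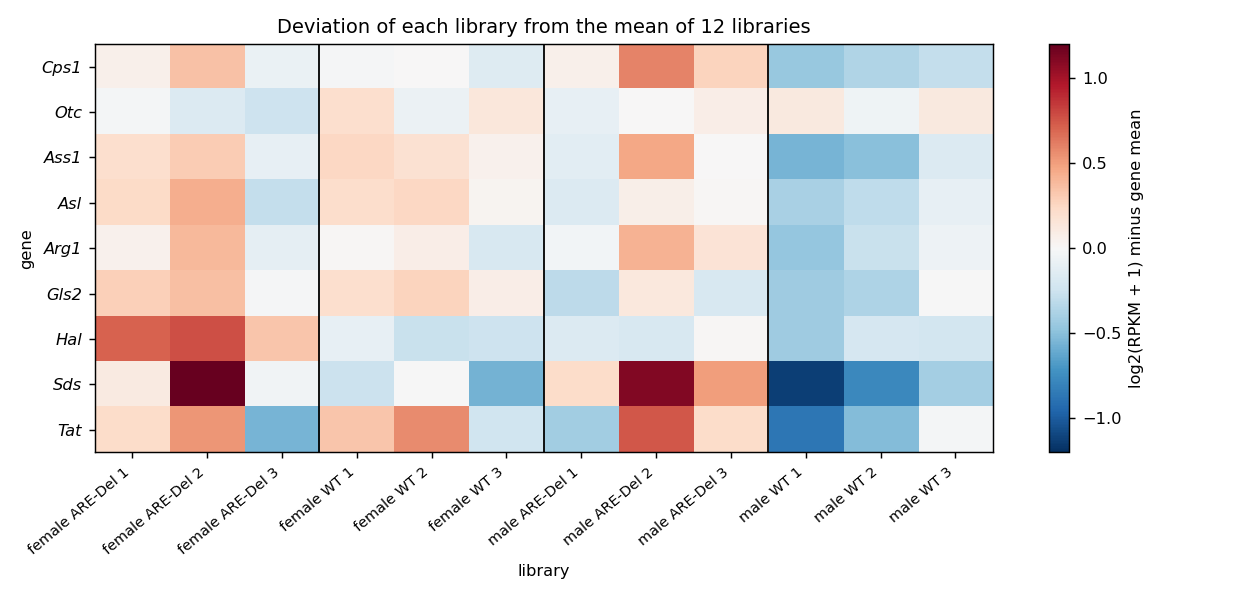
Deviation of each of the 12 libraries (columns) from the gene's mean of log2(RPKM + 1) for the 9 enzymes (rows), red above and blue below. Female ARE-Del 2 and male ARE-Del 2 are high for most enzymes, female ARE-Del 3 is low within its group, and Otc stays near 0.

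Within a group the enzymes tended to be high or low in the same libraries. The library labelled female ARE-Del 2 was the highest of its group for 8 of 9 enzymes (not Otc), and female ARE-Del 3 the lowest for 9 of 9. Male ARE-Del 2 was the highest for 7 and male ARE-Del 1 the lowest for 8, and male WT 3 the highest for 8 and male WT 1 the lowest for 8. Among female WT libraries the second was the highest for 6 and the third the lowest for 7. What set these libraries apart is not given in the labels, and its part in the results was not tested.

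The likeness of profiles was measured as the root mean square difference between log2(RPKM + 1) values centred on each gene's mean over the 12 libraries, as a description without a test, since all genes share the same libraries. Among the 10568 tested genes Arg1 was nearest to Cps1, at 0.1004, against 0.290 for the deviation of Cps1 itself. Cdk5rap1 was slightly closer to Arg1, at 0.0985. The gene model 4933429F08Rik was nearest to Ass1 (0.0978) and the second nearest to Cps1 (0.116), and Ppargc1a, a coactivator of fasting genes, was the second nearest to Ass1 (0.113). Otc was followed most closely by Hibadh, an enzyme of valine breakdown (0.0455), and Papd5 (0.0501), against only 0.128 for Otc itself. The deviations of Ass1, Arg1, Asl, Gls2 and Hal themselves were 0.298, 0.244, 0.244, 0.257 and 0.375. Several neighbours were low genes, whose changes log2(RPKM + 1) understates. Ppargc1a averaged 1.26 RPKM, 4933429F08Rik 1.79, Cdk5rap1 2.26 and Papd5 3.26. Asl was followed by Crp (0.114) and Sfxn2 (0.116), and Gls2 by Mcart1 (0.0916) and Asl (0.117). The nearest to Hal was Ppif (0.109). The nearest to Sds were Acmsd (0.277) and Gag_p30.68 (0.303), against 0.682 for the deviation of Sds itself, and the nearest to Tat were Ppl (0.220) and Ass1 (0.264), against 0.495 for Tat.

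Ratios within a library do not change when all its values are multiplied by 1 factor, though quantile normalization can change them. Those given here were chosen after the values were seen, so they carry no test. The ratio of Cps1 to Otc, consecutive enzymes of the cycle, was 6.68, 9.02 and 7.07 in female ARE-Del and 5.41, 6.61 and 5.15 in female WT. In males it was 7.04, 9.51 and 7.15 in ARE-Del and 4.23, 5.09 and 4.74 in WT. Each of the 6 ARE-Del ratios exceeded each of the 6 WT ratios, the nearest being female ARE-Del 1 and female WT 2. The ratio of Hal to Uroc1, the urocanate hydratase that follows it, was 1.66, 1.79 and 1.43 in female ARE-Del against 0.922, 0.918 and 1.06 in female WT. It was 1.30, 1.12 and 1.43 in male ARE-Del against 1.13, 1.20 and 1.12 in male WT, which overlapped.

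**Figure D4:**
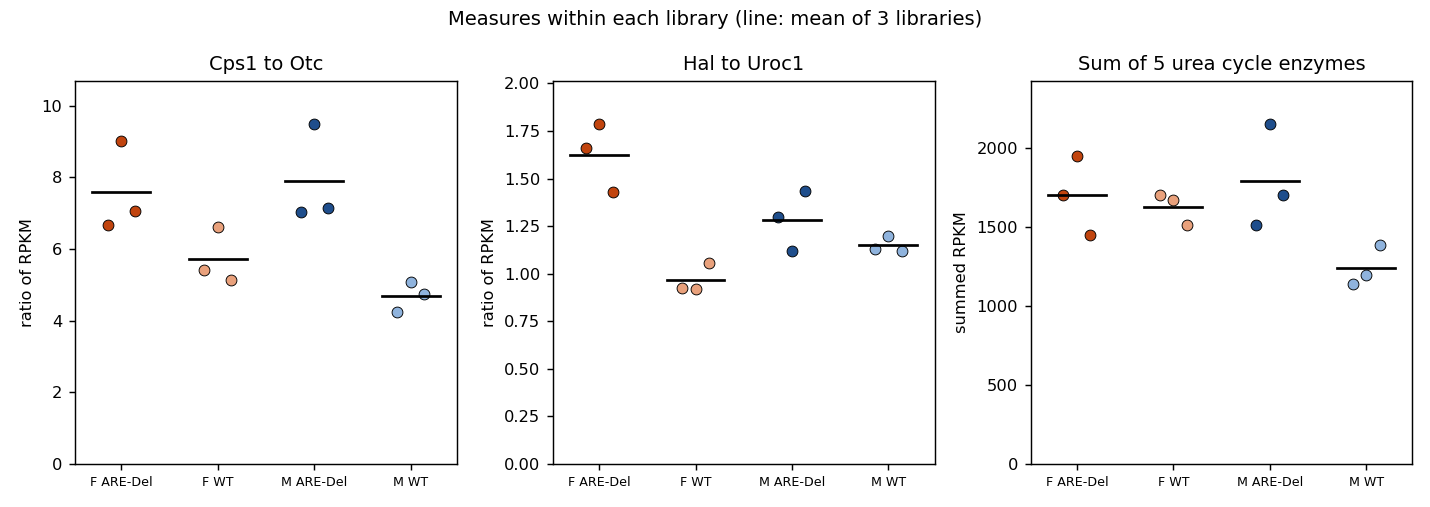
The ratio of Cps1 to Otc, the ratio of Hal to Uroc1, and summed RPKM of the 5 urea cycle enzymes in every library (vertical axes, starting at 0), with ARE-Del left of WT in each sex. Lines are means of 3 libraries. Cps1 to Otc is higher in all 6 ARE-Del libraries, and Hal to Uroc1 is highest on average in female ARE-Del.

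Over all 10568 tested genes, 25.8% were called higher and 584 genes lower in females, and 19.5% higher and 216 genes lower in males. The counts of each list in this and the following paragraphs stand beside these, and rescaled list counts stand beside the rescaled totals. By median of ratios 1915 genes were called higher and 1750 lower in females, and 1217 and 967 in males. By quantiles these were 1616 and 2497 in females, and 923 and 1153 in males. At equal summed RPKM they were 1808 and 1392 in females, and 1231 and 454 in males. Of 10 tested helpers of the urea cycle and of ammonia handling, 2 rose and 4 fell in females, with a median of -0.20. The falls were in Glud1, the glutamate dehydrogenase (-0.43 ± 0.11), Glul, the glutamine synthetase that takes up the ammonia the cycle leaves (-0.41 ± 0.13), and the mitochondrial carriers of aspartate (Slc25a13, -0.40 ± 0.09) and ornithine (Slc25a15, -0.30 ± 0.10), and the rises included the ammonia channel Rhbg (0.66 ± 0.15). In males 3 of 10 rose and 0 fell, with a median of 0.17. Got1, the cytosolic aspartate aminotransferase, was at 36.7, 54.4 and 50.6 RPKM in male ARE-Del against 15.7, 16.4 and 22.9 in male WT (1.32 ± 0.17; limma, adjusted p = 2.3e-04), and Rhbg rose by 1.17 ± 0.15. Quantile normalization turned the male count to 2 up and 2 down. Without the library labelled female ARE-Del 2, 2 rose and 2 fell in females, Glul and Slc25a15 no longer passing.

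None of 3 enzymes after Hal in histidine breakdown passed in either sex, with medians of 0.17 in females and 0.02 in males (Uroc1 0.07 ± 0.10 and 0.02 ± 0.10, Ftcd 0.17 ± 0.08 and 0.06 ± 0.08), and the male median was below 0 under each rescaling. Around Tat, 0 of 7 rose and 3 fell in females, among them Hpd (-0.28 ± 0.10) and Gstz1 (-0.26 ± 0.08), and 6 fell under median-of-ratios scaling and 4 at equal summed RPKM. In males the median of these 7 was 0.18 as deposited and -0.03 after quantile normalization. Of 7 genes that use arginine elsewhere, Oat, the ornithine aminotransferase, fell in females. It was at 151, 127 and 133 RPKM in ARE-Del and 256, 229 and 246 in WT (-0.83 ± 0.15), with no overlap. In males the arginine carrier Slc7a2 rose (0.75 ± 0.20) and Odc1, the ornithine decarboxylase, fell (-0.40 ± 0.13). The rise of Slc7a2 was lost under each rescaling. The fall of Odc1 held under each rescaling but was lost in 8 of 19 alternatives, with adjusted p up to 0.141 (limma, without male WT 1).

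Among 12 enzymes of serine, glycine, alanine and proline, Sdsl, a relative of Sds, rose in females (0.53 ± 0.14) and males (0.54 ± 0.14), Prodh fell in females (-0.46 ± 0.16), and Agxt rose in males (0.44 ± 0.11). Without the library labelled female ARE-Del 2 the female rise of Sdsl was 0.33 and passed. Under median-of-ratios scaling 0 rose and 4 fell in females (Prodh, Prodh2, Shmt1 and Shmt2), and in males 0 rose and 1 fell (Prodh2). Prodh was not called in 8 of 19 alternatives, among them the fit without the library labelled female ARE-Del 2. Of 8 sulfur amino acid and lysine enzymes 0 passed in females and 1 rose in males, Cdo1 (0.33 ± 0.10), and of 9 branched-chain enzymes 2 fell in females, Bckdhb (-0.29 ± 0.10) and Hibadh (-0.28 ± 0.09), and 0 passed in males. Cdo1 lost its male call under each rescaling, and Cdo1 and Cth fell in females under median-of-ratios scaling and at equal summed RPKM. Bckdhb lost its call in 10 of 19 alternatives and Hibadh in 5, each time including the fit without the library labelled female ARE-Del 2. Under median-of-ratios scaling 5 branched-chain enzymes fell in females. Of amino acid transporters 5 of 8 rose in females (Slc43a1 0.51 ± 0.12, Slc7a7 0.50 ± 0.09, Slc25a22, Slc38a3 and Slc3a2; median 0.32) and 4 of 8 in males (Slc43a1 0.63 ± 0.12, Slc25a22 0.59 ± 0.16, Slc1a2 and Slc3a2; median 0.25). Under median-of-ratios scaling these were 2 up and 1 down in females, and 2 up in males. The female calls of Slc38a3 and Slc25a22 stood in 5 and 11 of 19 alternatives, those of Slc43a1 and Slc7a7 in 18 and 19. Of 11 regulators, Cebpa fell in females (-0.35 ± 0.11), while in males Fkbp5, a glucocorticoid-induced gene, Hnf4a and Ppargc1a rose (1.28 ± 0.26, 0.44 ± 0.12 and 0.43 ± 0.10). After median-of-ratios scaling 4 fell in females (Cebpa, Foxo1, Gcgr and Nr3c1), and in males Hnf4a was not called while Cebpa and Gcgr fell. Quantile normalization gave 5 falls in females.

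**Figure D5:**
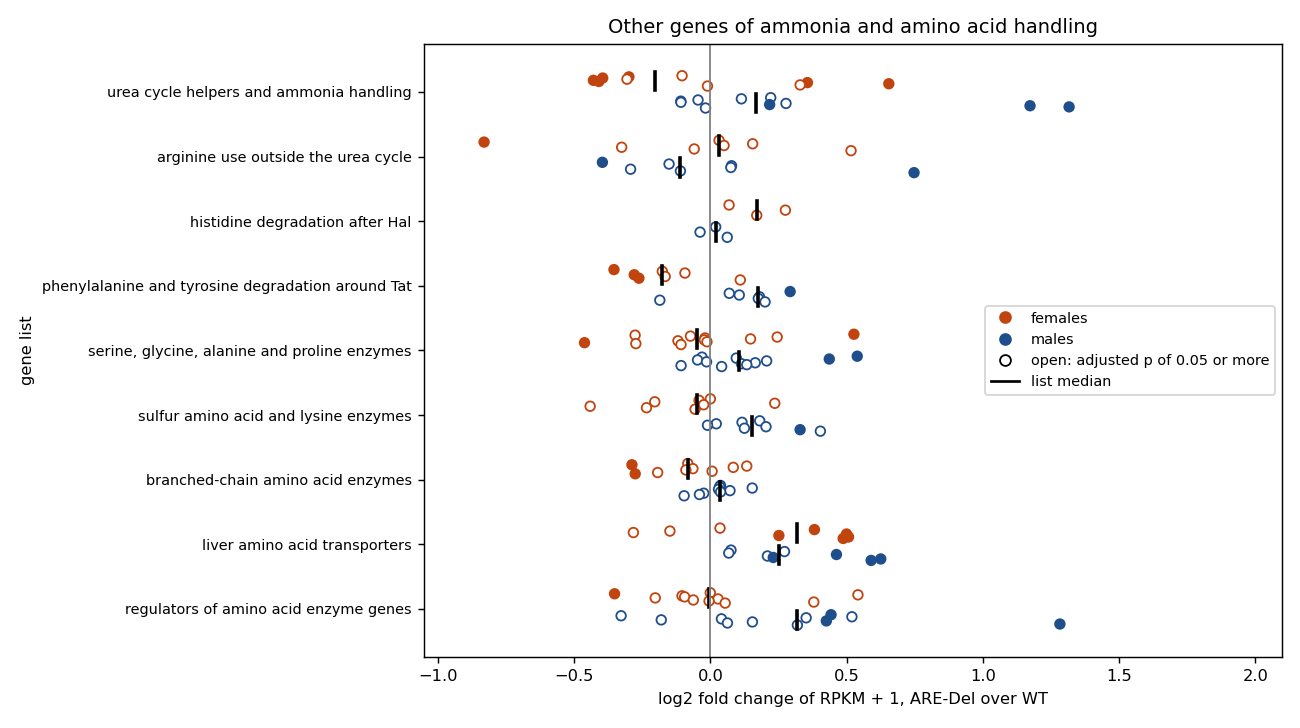
Log2 fold change of RPKM + 1, ARE-Del over WT (horizontal axis), for the tested genes of 9 lists of ammonia and amino acid handling (rows), females orange and males blue. Filled points passed at an adjusted p below 0.05 and bars mark list medians, which lie between -0.20 and 0.32 in females and between -0.11 and 0.32 in males.

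Other genes of the same and the opposite liver zone were set beside the enzymes. Of 11 other periportal markers, the adhesion gene Cdh1 rose in females (0.90 ± 0.12) and males (0.56 ± 0.12). Pck1, the fasting-induced enzyme of glucose synthesis, rose in males (1.44 ± 0.21), with means of 292 ± 79.3 RPKM in ARE-Del and 105 ± 17.2 in WT. In females Pck1 was at 313, 407 and 329 RPKM in ARE-Del and 183, 264 and 253 in WT. Those groups did not overlap, and the difference of 0.59 ± 0.21 just missed the threshold (limma, adjusted p = 0.0519). The list medians were -0.06 in females and 0.12 in males, against 0.09 and 0.10 over all tested genes. Median-of-ratios scaling gave 1 up and 4 down in females and 2 up and 1 down in males. Of 12 pericentral markers 6 fell in females, among them Oat, Cyp2e1 (-0.81 ± 0.15), Lect2 (-0.66 ± 0.12) and Glul, and Rhbg rose, with a median of -0.35. In males 5 of 12 rose, among them Rhbg, Cyp1a2 (0.49 ± 0.14), Slc1a2 (0.46 ± 0.12) and Axin2 (0.44 ± 0.08), and Lgr5 fell (-0.22 ± 0.06), with a median of 0.31. Each rescaling ended the male call of Cyp1a2 and added falls, giving 3 up and 3 down by median of ratios, and Glul did not pass in females without the library labelled female ARE-Del 2. Oat, Glul, Rhbg and Slc1a2 also stand in the lists above. Of 7 tested general hepatocyte markers 3 rose in females and 2 in males, including Apoa1 (0.82 ± 0.14 and 0.57 ± 0.14), with 2 up and 2 down in females and 0 up and 1 down in males under median-of-ratios scaling.

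Markers of other cells are given beside the share of all tested genes called higher in ARE-Del, 25.8% in females and 19.5% in males. All 7 tested macrophage and Kupffer cell markers rose in both sexes (median 1.97 in females and 1.71 in males; Marco 3.09 ± 0.50 and 3.24 ± 0.50). The 8 listed summed to 405 to 527 RPKM in female ARE-Del, 73.7 to 127 in female WT, 246 to 310.1 in male ARE-Del and 51.5 to 92.8 in male WT. T cell markers rose in 3 of 3 tested in females and 2 of 3 in males, with sums of 2.49 to 4.87 RPKM in female ARE-Del, 0.267 to 0.800 in female WT, 1.64 to 2.81 in male ARE-Del and 0.513 to 0.681 in male WT. Of neutrophil markers 1 of 2 rose in females and 0 of 2 in males. Stellate cell markers rose in 2 of 4 in females and 0 of 4 in males. The female call of Col1a1, 1 of these 2, was lost in 14 of 19 alternatives. Endothelial markers rose in 2 of 5 in females and 1 of 5 in males, and cholangiocyte markers in 1 of 2 in each sex. The neutrophil call and that of Pecam1 among endothelial markers were each lost in 5 of 19 alternatives. Both were lost without the library labelled female ARE-Del 2. Of the male T cell calls, that of Cd3g was lost in 12 of 19 alternatives and that of Cd8a in 3. Quantile normalization left 0 T cell calls in males. Of kidney and gut markers 1 was tested, Fabp2, which did not pass (-0.63 and -0.66), and of acinar pancreas markers 1 was tested, Ela1, which fell in both sexes (-0.88 ± 0.10 and -0.76 ± 0.10). The part of these cells in the values of the 9 enzymes was not tested.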

How the data were processed

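Liver RNA was sequenced in 4 groups of 3 samples, and values were deposited by the authors as RPKM per gene, a unit normalized for transcript length and library size. Per the submitters' processing notes, Trimmomatic 0.30, TopHat2 2.0.8, Partek and GenomeStudio 6.6 were used with the mm9 build; the counting method was not given in the sources used here, nor was the use of strand. Read totals are unknown, so no counting intervals are given and precision rests on the spread of 3 libraries. No 2 libraries of the same group shared a value above 0 for any gene.

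Values were analysed as log2(RPKM + 1), which understates the fold of low genes, for genes with at least 0.5 RPKM in at least 3 libraries. All 12 libraries entered 1 limma fit (limma 3.58.1 in R 4.3.3, moderated with a mean trend) with 5 comparisons, each adjusted by the Benjamini-Hochberg method over all 10568 genes and called at 0.05. Other steps and the figures used matplotlib 3.10.9, numpy 2.4.6 and pandas 2.3.3 under Python 3.11.15. For a single value, 3 against 3 libraries cannot go below p = 0.1 by exact permutation. The fit was tested on simulated data.

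The 9 enzymes and the 21 gene lists (162 entries, 143 matched by symbol, 9 by an older symbol, 10 not matched, 131 tested) were chosen with earlier results of these data known. Named genes were the 9 enzymes, Ifng, the 2 nearest profiles of each enzyme, and up to 4 called genes per list and sex by size of change, filled to 2 by level. Where 5 or fewer were called, further genes were named once their values had been seen. A few genes that the rule names are not reported here. The alternatives were median-of-ratios scaling, quantile normalization, scaling to equal summed RPKM, a pseudocount of 0.1, no filter, a fit of only the groups compared, the replicate number as a block, and leaving out each library. Same-numbered libraries showed no sign of deviating together over all tested genes, so they were not paired.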

Additional observations from a re-analysis of the deposited data

Results flagged for a closer look

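The genotype effect differed between the sexes, by the interaction test over all genes, for 1 of the genes named beside the enzymes. Cyp1a2, a pericentral cytochrome, was at 176, 153 and 183 RPKM in female ARE-Del against 325, 259 and 209 in female WT, and at 245, 236 and 231 in male ARE-Del against 182, 165 and 160.4 in male WT. ARE-Del lay below WT in females and above it in males without overlap. The female effect minus the male effect was -1.10 ± 0.19 (limma, adjusted p = 0.0378), and it was called in 6 of 18 alternatives, over which the adjusted p ran from 0.0133 to 0.117.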

How the results depend on the processing

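The rises of Hal in females (0.66 to 0.95) and of Cps1 in males (0.51 to 0.80), and the higher Hal in female than in male ARE-Del (0.63 to 0.85), passed in all 19 alternatives run. Sds in males passed in 18 and Ass1 in males in 10. Of 846 values of the 9 enzymes under alternatives, 773 kept their direction and call, 22 lost a call, 13 gained one and 38 changed sign. Of 1329 values of called genes from the other lists, 1086 kept direction and call and 243 lost the call, with none changing sign. Over all tested genes the median difference between ARE-Del and WT was 0.09 in females and 0.10 in males as deposited, and -0.07 and -0.05 after quantile normalization. The share of calls that were higher in ARE-Del, 82.3% in females and 90.5% in males as deposited, was then 39.3% and 44.5%, against 52.3% and 55.7% by median of ratios and 56.5% and 73.1% at equal summed RPKM. The cause of these shifts was not tested.

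In females 2 enzymes were called under median-of-ratios scaling, quantile normalization and equal summed RPKM, Otc being the added one, against 1 as reported. In WT, 0 enzymes were called between females and males under those 3 scalings, without the filter and with the block, and 2 with only the groups compared. Interaction calls over all genes were 106 under quantile normalization, 34 at equal summed RPKM, 14 with a pseudocount of 0.1, 30 without the filter and 32 with the block.

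Signs turned for small values. ARE-Del against WT in females was -0.0096 (median of ratios) and -0.0018 (equal summed RPKM) for Arg1, and -0.12, -0.053 (quantiles) and -0.11 for Gls2. In males Gls2 was -0.017 (median of ratios) and -0.0069 (quantiles). Between females and males in ARE-Del, Ass1 was -0.021 (median of ratios) and -0.062 (equal summed RPKM) and Arg1 0.044 (quantiles). Between females and males in WT, Otc was -0.024 by median of ratios, -0.088 by quantiles and -0.024 at equal summed RPKM, and Hal -0.041 under quantile normalization.

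Leaving out 1 library gave 1 to 2 called enzymes in females, 1 to 4 in males (1 without male WT 1) and 0 to 2 between females and males in WT. Over all genes it gave 1271 to 2480 calls in males (fewest without male WT 1), 11 to 114 for the interaction (fewest without male WT 2), 1453 to 2498 between the sexes in ARE-Del (fewest without male ARE-Del 2) and 535 to 1126 in WT (fewest without male WT 1). Values that changed sign ran from -0.10 to 0.10 for Ass1, -0.19 to 0.17 for Asl, -0.045 to 0.14 for Gls2 and -0.39 to 0.15 for Tat in females, and from -0.24 to 0.013 for the interaction of Gls2. Between the sexes in ARE-Del they ran from -0.094 to 0.20 for Ass1, -0.0040 to 0.36 for Asl, -0.21 to 0.044 for Arg1, -0.58 to 0.082 for Sds and -0.42 to 0.20 for Tat, and in WT from -0.028 to 0.11 for Otc.

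With the replicate block, 2 enzymes were called in females (Sds joined Hal), 4 in males (Arg1 added), 0 for the interaction, 1 between the sexes in ARE-Del and 0 in WT, and 3019, 2024, 32, 2063 and 845 genes in all. Over all tested genes, deviations from the group means showed no sign of pairing by number. Of 18 same-numbered pairs 5 correlated above 0.1, over a range of -0.291 to 0.245, and 2 of 12 libraries correlated best with their own number. Whether same-numbered samples were handled together was not tested.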
